A study of Mus musculus with 48 samples.

Results

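The mRNA levels of 10 genes of inflammatory signalling were examined in blood and in the medial prefrontal cortex (mPFC) of the same mice. The genes were the cytokines Il1b, Il6, Tnf, Il18 and Tgfb1, the interleukin-1 antagonists Il1r2 and Il1rn, the inflammasome sensor Nlrp3, its protease Casp1, and Ptgs2. They were chosen by name, as every probe on the array that carries one of these symbols and is not a control. This gave 11 probes, 2 of them for Nlrp3, out of 55681 probes for 34844 gene names.

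Interleukin-1β is made as an inactive precursor, and NLRP3, when it senses danger, assembles an inflammasome in which caspase-1 cuts the precursors of interleukin-1β and interleukin-18 into active cytokines. Interleukin-1 signalling is held back by IL1RN, which occupies the receptor without activating it, and by IL1R2, a decoy receptor found on neutrophils. TNF and interleukin-6 carry the inflammatory signal further, TGF-β1 mostly dampens immune cells, and PTGS2 (COX-2) makes prostaglandins and is also expressed by cortical neurons.

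The study modelled depression after menopause with ovariectomy (OVX) and chronic ultra-mild stress, and asked how each alone and both together changed gene expression. All 24 mice were female C57BL/6J, 17-week-old. Control mice had a sham operation and no stress, stress mice a sham operation and stress, OVX mice ovariectomy and no stress, and OVX+stress mice ovariectomy and stress, with 6 mice per group. Each mouse gave 1 array of blood and 1 of mPFC, and the blood RNA came from the lysed pellet of heparinised and centrifuged blood.

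Levels are given as log2 of the background-subtracted intensity relative to the 75th percentile of the array. A probe was called detected, and was tested, when it stood well above background on all 24 arrays of a tissue and its intensity exceeded 50 on at least 2. By this rule 5 of the 11 probes were detected in blood (Il1b, Il1r2, Tgfb1, Casp1 and 1 of the Nlrp3 probes) and 4 in mPFC (Tgfb1, Casp1, Il18 and Ptgs2). Il1rn, Il6 and Tnf had no probe that passed in either tissue, so their values are given with the number of arrays above background.

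The array reads each gene through 60-base probes, which were placed by the files on mm9. Probes on coding sequence are shown for genes on which the results turn. Tgfb1 gave the change in mPFC (chr7:26489877-26489936, plus strand), Il1r2 was far higher in the blood of 1 mouse, OVX+stress 5 (chr1:40180014-40180073, plus strand), and Il18 and Il1rn lie over the end of the reading frame (chr9:50389761-50389820 and chr2:24205094-24205153, both plus strand). Capitals mark the stop codon of Il18 and Il1rn, and the bases after it are not shown.
Tgfb1 probe: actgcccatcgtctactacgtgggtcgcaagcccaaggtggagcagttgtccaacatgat
Il1r2 probe: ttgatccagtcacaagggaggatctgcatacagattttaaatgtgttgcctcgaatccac
Il18 probe: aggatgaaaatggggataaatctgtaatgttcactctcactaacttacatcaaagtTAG
Il1rn probe: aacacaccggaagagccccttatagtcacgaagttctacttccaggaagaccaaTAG

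The GC content of the 60 bases was 55% for Tgfb1 and 35% for Il18, Casp1, Il1b, Il6 and Ptgs2. The other probes were named by position only. Casp1 lay at chr9:5307206-5307265 (plus strand), Il1b at chr2:129190347-129190406 (minus strand), Tnf at chr17:35336795-35336854 (minus strand), Il6 at chr5:30346367-30346426 (plus strand) and Ptgs2 at chr1:151954744-151954803 (plus strand). Both Nlrp3 probes were on the plus strand, A_52_P650540 at chr11:59378554-59378613 and A_55_P2273439 at chr11:59379981-59380040. Exon annotation of mm9 was not used here.

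Il1b and Il1r2, which moved together between mice in blood, were also compared in their promoters, the 250 bases before the transcription start in RefSeq (GRCm38.p6). C/EBP proteins, which act in myeloid cells, bind sequences like TTNNGNAA, and this motif was searched on both strands together with an NF-kB motif of GGGA, any 4 bases and CC. Of 32851 promoters of the same length, 36.8% held the C/EBP letters and 17.6% the NF-kB letters. The Il1b promoter (chr2:129371140-129371389, minus strand) held no NF-kB match and 1 C/EBP match, TTGTGAAA, which starts 91 bases before the gene and is in capitals. The Il1r2 promoter (chr1:40085843-40086092, plus strand) held neither motif, which describes this window only.
Il1b promoter: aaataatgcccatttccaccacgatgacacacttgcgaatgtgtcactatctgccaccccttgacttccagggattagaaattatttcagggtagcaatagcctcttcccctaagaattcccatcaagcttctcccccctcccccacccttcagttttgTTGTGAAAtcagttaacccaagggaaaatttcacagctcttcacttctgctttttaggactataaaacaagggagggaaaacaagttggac
Il1r2 promoter: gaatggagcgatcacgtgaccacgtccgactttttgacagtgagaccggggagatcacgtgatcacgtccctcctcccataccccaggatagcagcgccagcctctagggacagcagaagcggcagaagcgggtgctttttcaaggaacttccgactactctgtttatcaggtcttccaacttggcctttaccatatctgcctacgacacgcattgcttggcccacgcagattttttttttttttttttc

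The blood array of mouse OVX+stress 5 stood apart from the other blood arrays. Averaged over 17 neutrophil genes, its log2 level in blood reached 4.98, when the remaining 23 mice spanned 1.36 to 2.55. In mPFC it was -2.47, and no other mouse exceeded -3.87. Its monocyte genes were also highest, at 4.11 against at most 2.57, and its T-cell genes lowest, at 2.86. Results are therefore given with and without this mouse. The blood array of mouse stress 2 was the dimmest, with a 75th percentile of 54.9 in a range of 54.9 to 192, while mPFC arrays lay between 572 and 689. In whole tissue, fewer cells of a type and less RNA per cell cannot be told apart. The arrays of a tissue lay on 3 slides. Slide 1 held all control mice and stress mice 1 and 2, slide 2 held stress mice 3 to 6 and OVX mice 1 to 4, and slide 3 held OVX mice 5 and 6 and all OVX+stress mice. Control and OVX+stress mice shared no slide, so their contrast has no value within a slide.

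The tissues differed widely in these genes. Il1b was well above background on 24 of 24 blood arrays, at 2.83 ± 0.75 (SD, n = 24), and on 17 of 24 mPFC arrays, at -4.81 ± 0.38. Il1r2 was at -0.61 ± 0.90 in blood and -4.18 ± 0.42 in mPFC. For both genes every blood array lay above every mPFC array, and the share of all probes with such a split was not counted. The Tnf probe stood above background on 23 of 24 blood arrays and on none of mPFC, and was at least 11.1-fold higher in blood. Ptgs2 went the other way, above background on all 24 mPFC arrays and on none of blood, and was at least 10.98-fold higher in mPFC. These bounds compare the mean of the brighter tissue with the floor of detection in the dimmer tissue. They depend on the scaling, and with arrays scaled by spike-in RNA they were 3.19-fold for Tnf and 38.1-fold for Ptgs2.

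Il18 was likewise brighter in cortex, with an intensity of 1710 to 2342 in mPFC and a level of 1.72 ± 0.14 against -1.20 ± 0.68 in blood (SD, n = 24). The difference between tissues was tested for the probes detected in both. Casp1 was 9.38-fold higher in blood (log2 difference 3.23, SE 0.07, limma adjusted p = 2.3e-37) and Tgfb1 27.7-fold (log2 4.79, SE 0.06, limma adjusted p = 3.33e-49). Both passed, in a comparison where 96.3% of all 17546 probes passed. When arrays were instead scaled by spike-in RNA, the differences were 1.44 for Casp1 and 3.00 for Tgfb1, while the median of all probes moved from 0.43 to -1.36.

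**Figure D1:**
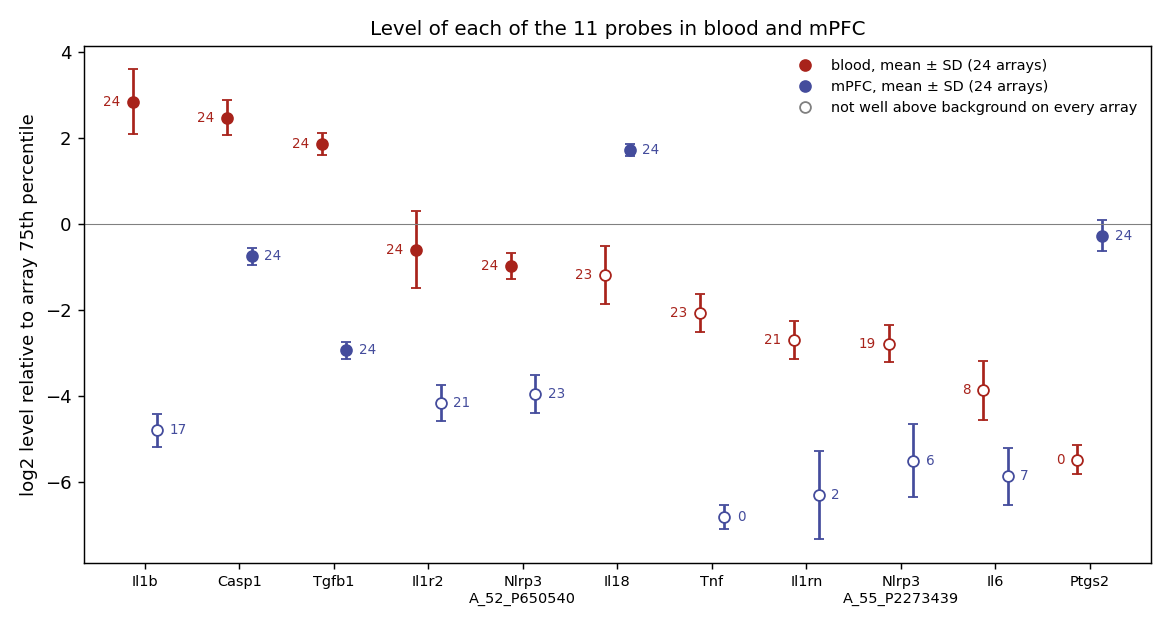
Log2 level relative to the array's 75th percentile (vertical axis) of each of the 11 probes in blood (red) and mPFC (blue), as the mean ± SD of 24 arrays, with the number of arrays well above background beside each point. Open points were not above background on every array. Il1b, Il1r2, Tnf, Tgfb1 and Casp1 were higher in blood and Il18 and Ptgs2 in mPFC. Levels of different probes are not comparable with each other.

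Il1rn, Il6 and the other Nlrp3 probe were near the limit of detection. Il1rn was above background on 21 blood arrays and 2 mPFC arrays, Il6 on 8 and 7, and Nlrp3 A_55_P2273439 on 19 and 6. Il6 is therefore given no direction between groups. Nlrp3 A_52_P650540 was above background on all 24 blood arrays and on 23 in mPFC.

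In blood, Il1b and Il1r2 varied more between mice of a group than between groups. For Il1b the lowest, median and highest levels were 2.29, 2.53 and 3.45 in control mice, 2.15, 2.76 and 3.81 in stress mice, 1.88, 2.81 and 3.84 in OVX mice, and 1.96, 2.64 and 5.23 in OVX+stress mice. All 4 groups overlapped, and the value of 5.23 was mouse OVX+stress 5, the next in its group being 3.17. For Il1r2 they were -1.33, -0.83 and -0.24 in control mice, -0.75, -0.37 and 0.11 in stress mice, -1.55, -0.80 and 0.74 in OVX mice, and -1.74, -1.11 and 2.61 in OVX+stress mice. With all mice the decoy receptor's groups overlapped too. Its highest value was again mouse OVX+stress 5, with the next mouse of that group at -0.94. Without mouse 5 the OVX+stress group spanned -1.74 to -0.94 and lay below all 6 stress mice. Stress and OVX+stress mice shared no slide, and the share of all probes separated like this was not counted.

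Neither gene passed the test for any effect in blood. The OVX effect, taken as the mean over both stress levels, was 0.08 for Il1b (SE 0.30, limma adjusted p = 0.833) and -0.08 for Il1r2 (SE 0.35, limma adjusted p = 0.857). Without mouse OVX+stress 5 the Il1r2 estimate was -0.40 (SE 0.21, limma adjusted p = 0.104) and its interaction of OVX with stress was -1.01 (SE 0.41, limma adjusted p = 0.195). The receptor antagonist Il1rn was at -1.55 in that mouse and at most -2.89 in the other 5 of its group.

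Il1b and Il1r2 rose and fell with the neutrophil genes from mouse to mouse. Over the 23 other mice, after each group's mean was removed, the correlation with the mean of the 17 neutrophil genes was 0.89 for Il1b and 0.82 for Il1r2, and 0.89 and 0.95 over all 24. With the monocyte genes Il1b correlated at 0.57 (23 mice) and 0.80 (24 mice), and Il1r2 at 0.31 and 0.77. The Il1b and Il1r2 values themselves correlated at 0.83 (23 mice) and 0.91 (24 mice). Each point is 1 blood array, so the genes share its library and depth. The neutrophil genes did not follow the groups, with medians of 1.93, 1.88, 1.98 and 1.85 in control, stress, OVX and OVX+stress mice. Casp1 and Nlrp3 followed them less closely, at 0.23 and 0.21 over the 23 mice, with Casp1 at 0.67 over all 24.

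**Figure D2:**
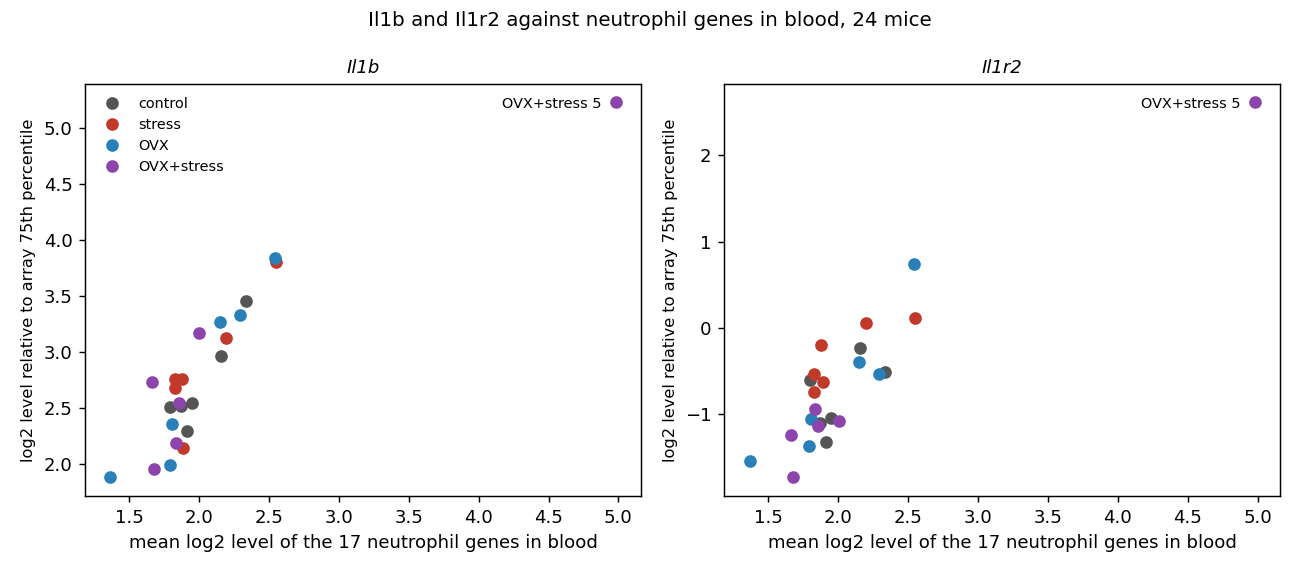
Log2 level of Il1b (left) and Il1r2 (right) in blood against the mean log2 level of 17 neutrophil genes, 1 point per mouse, coloured by group. Mouse OVX+stress 5 lies alone at 4.98, and the other 23 mice lie between 1.36 and 2.55.

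The genes most like each blood probe were found by the same group-centred correlation over 23 mice among 20768 probes. For Il1b they were Cstdc4 (0.96), the transcription factor Cebpd (0.94) and the iron exporter Slc40a1 (0.93). For Il1r2 they were Hdc, which makes histamine (0.91), the receptor Clec4d (0.90) and Mrgpra2b (0.90). For Casp1 they were Mia2 (0.94), Snrpe (0.94) and Rab5b (0.92), for Nlrp3 they were Ccdc57 (0.85), Lrrtm1 (0.85) and Saa1 (0.82), and for Tgfb1 they were Cfl1 (0.95), Gm5069 (0.94) and Rsu1 (0.92). With mouse OVX+stress 5 included, Snrpe was at 0.68 and Gm5069 at 0.71, so these likenesses depended on that mouse being left out.

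With all mice, Casp1 fell and the detected Nlrp3 probe rose with stress in blood. Only the Casp1 call held with slide as a block. Casp1 was at 2.43, 2.59 and 2.73 (lowest, median, highest) in control mice, 1.56, 1.93 and 2.48 in stress mice, 2.39, 2.84 and 2.88 in OVX mice, and 1.99, 2.45 and 3.33 in OVX+stress mice. Of the 6 stress mice, 5 lay below every control mouse. The Casp1 maximum in OVX+stress mice, 3.33, was mouse 5, and without it the group spanned 1.99 to 2.56.

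Stress lowered Casp1 to 0.746 of its level without stress (log2 -0.42, SE 0.12, limma adjusted p = 0.00905). It raised Nlrp3 1.28-fold (log2 0.36, SE 0.10, limma adjusted p = 0.00792). These were 2 of the 5 probes tested, where 48.5% of all detected blood probes passed the test for stress. Both passed without mouse OVX+stress 5, with Casp1 at -0.51 (SE 0.10, limma adjusted p = 0.0016) and Nlrp3 at 0.35 (SE 0.10, limma adjusted p = 0.0105). In that fit 50.8% of probes passed.

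Nlrp3 lay at -1.33, -1.13 and -0.83 in control mice, -1.29, -0.88 and -0.56 in stress mice, -1.60, -1.11 and -0.87 in OVX mice, and -0.90, -0.69 and -0.48 in OVX+stress mice. The lowest OVX+stress mouse, at -0.90, lay just below the highest control mouse, at -0.83, and the highest OVX mouse, at -0.87. The direct contrast of OVX+stress with control mice was 0.42 (SE 0.14, limma adjusted p = 0.0767). No probe of the 5 passed that contrast in limma (6.26% of all probes did), and 1 was under 0.05 before adjustment. Again none passed without mouse OVX+stress 5 (5.21% of all probes did) and 1 was under 0.05 before adjustment. The dimmer Nlrp3 probe, tested only without the filter on dim probes, gave a stress effect of 0.26 (SE 0.17, limma adjusted p = 0.282).

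The slides bear on these results. With slide as a block, the stress effect on Casp1 was -0.49 (SE 0.18, limma adjusted p = 0.0294) and still passed, and that on Nlrp3 was 0.21 (SE 0.14, limma adjusted p = 0.199) and did not. Within slide 2, 4 stress mice lay 0.68 below 4 OVX mice in Casp1 (log2 -0.68, SE 0.18, limma adjusted p = 0.0154), where 52.2% of all probes passed. That contrast changes surgery and stress together. Within slide 1 the 2 stress mice differed from the 6 control mice by -0.64 (SE 0.21, limma adjusted p = 0.160). Within slide 3 the 6 OVX+stress mice differed from the 2 OVX mice by -0.35 (SE 0.29, limma adjusted p = 0.373). No probe of any gene passed within slide 1 or slide 3. For Nlrp3 the values on slides 1, 2 and 3 were 0.16, 0.44 and 0.25, and none passed (limma adjusted p = 0.544, 0.0769 and 0.206). Spike-in scaling left Casp1 at -0.60 (limma adjusted p = 0.0452) and Nlrp3 at 0.17 (limma adjusted p = 0.386). That scaling moved the median of all blood probes to -0.21 for stress and to 0.39 for OVX.

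OVX raised Casp1 1.25-fold in blood (log2 0.32, SE 0.12, limma adjusted p = 0.0294), and it was the only 1 of the 5 probes that passed, against 55.1% of all detected blood probes. When mouse OVX+stress 5 was left out the value was 0.24 (SE 0.10, limma adjusted p = 0.0448), and 55.6% of probes passed. With slide as a block it was 0.18 (SE 0.28, limma adjusted p = 0.944) and no probe of any gene passed. Without mouse stress 2 the value was 0.28 and the limma adjusted p was 0.0579. The interaction passed for none of the 5 probes in limma (1.42% of all probes did), and 1 was under 0.05 before adjustment, Tgfb1 at -0.52 (SE 0.20, limma adjusted p = 0.156). Without mouse OVX+stress 5 none of the 5 passed (0% of all probes did), and 2 were under 0.05 before adjustment, Tgfb1 at -0.57 and Il1r2 at -1.01.

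The marker genes of lymphocytes and monocytes also varied. Averaged over 8 B-cell genes, the log2 level ran from 3.97 to 4.10 with OVX, from 3.36 to 3.76 in control mice, from 2.85 to 3.62 under stress and from 2.73 to 3.91 with both, so that OVX mice lay above all others. Their part in the Casp1 values was not tested. The monocyte genes were at 0.96 to 2.55 in stress mice and 1.98 to 2.57 in control mice, and their part in the stress values was not tested. After group means were removed, Casp1 correlated over 23 mice at 0.80 with the B-cell genes, 0.61 with the NK-cell genes, 0.56 with the monocyte genes and -0.76 with the endothelial genes. Over all 24 mice these were -0.09, 0.18, 0.78 and -0.26. Only 3 of the 6 endothelial genes were detected in blood, and Cdh5 and Tie1 were above background on none of the arrays. The endothelial values are therefore not read as those of a cell type.

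Tnf and Il18 missed the detection rule in blood only through the dim array of mouse stress 2. For Tnf the levels were -2.45, -2.10 and -1.93 (lowest, median, highest) in control mice, -3.42, -2.34 and -1.89 in stress mice, -1.89, -1.71 and -1.52 in OVX mice, and -2.52, -2.06 and -1.21 in OVX+stress mice. All 6 OVX mice lay above all 6 control mice. These groups shared no slide, and the share of all blood probes split like this was not counted. For Il18 they were -1.55, -1.38 and -0.96 in control mice, -3.12, -1.71 and 0.12 in stress mice, -1.17, -0.90 and -0.45 in OVX mice, and -1.45, -1.01 and -0.15 in OVX+stress mice. The stress group spanned the widest range for both cytokines, with its lowest value in mouse stress 2.

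When that array was left out, both probes were tested and both passed for OVX, as 48.6% of all probes in that fit did. Tnf was 0.35 higher on the log2 scale (SE 0.12, limma adjusted p = 0.02) and Il18 0.51 higher (SE 0.20, limma adjusted p = 0.0421). The stress effects were -0.23 for Tnf (limma adjusted p = 0.118) and -0.09 for Il18 (limma adjusted p = 0.727). In all mice, no detected blood probe passed for OVX with slide as a block, and Tnf and Il18 were not among the probes of that fit. With all mice and no filter on dim probes, the OVX effects were 0.45 for Tnf (limma adjusted p = 0.0284) and 0.65 for Il18 (limma adjusted p = 0.0417).

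Tgfb1 passed no test in blood. Its levels were 1.15, 1.78 and 1.96 in control mice, 1.74, 1.92 and 2.26 in stress mice, 1.78, 1.98 and 2.41 in OVX mice, and 1.44, 1.73 and 1.99 in OVX+stress mice, and the groups overlapped. The OVX effect was 0.05 (SE 0.10, limma adjusted p = 0.688).

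**Figure D3:**
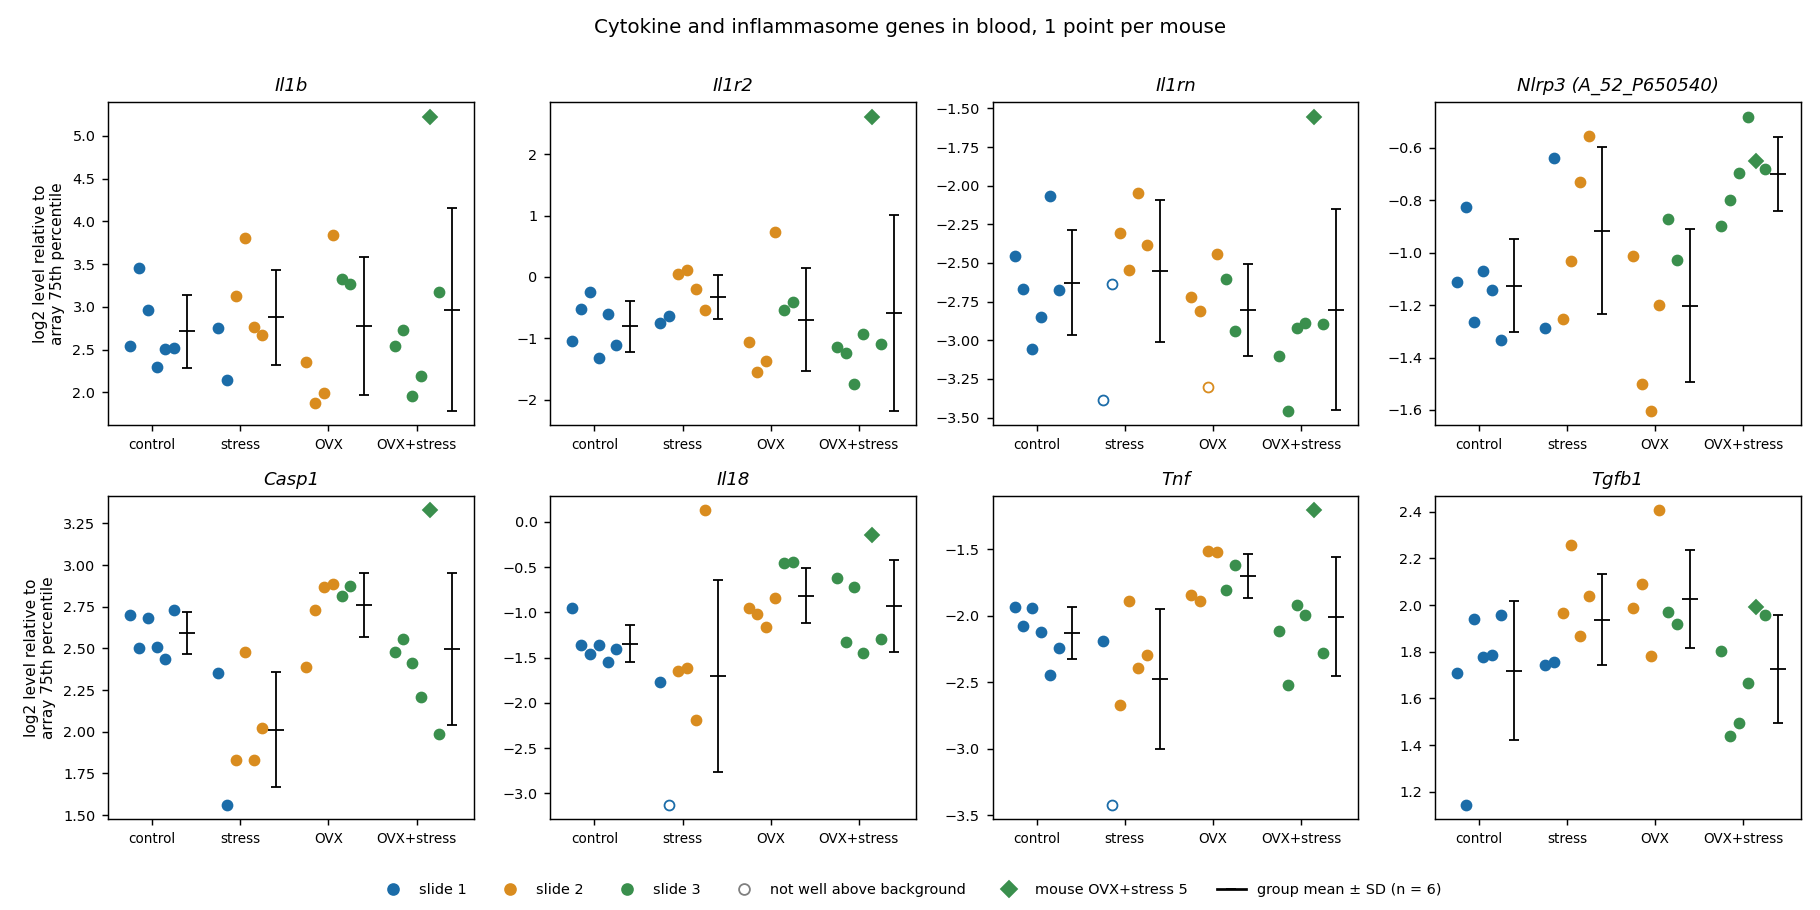
Log2 level relative to the array's 75th percentile of 8 probes in blood, 1 point per mouse in 4 groups, coloured by slide, with the group mean ± SD (n = 6) beside each group. Diamonds mark mouse OVX+stress 5, which is highest for Il1b (5.23) and Il1r2 (2.61), and open symbols mark arrays not well above background.

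In mPFC, Tgfb1 was the 1 gene of the 4 detected that changed. It was at -3.27, -3.20 and -3.14 (lowest, median, highest) in control mice, -3.10, -2.81 and -2.71 in stress mice, -2.98, -2.91 and -2.61 in OVX mice, and -3.10, -2.79 and -2.68 in OVX+stress mice. Every mouse of the other 3 groups lay above every control mouse. The share of all mPFC probes for which this held was not counted. The 3 treated groups overlapped each other.

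OVX raised Tgfb1 1.14-fold in mPFC (log2 0.19, SE 0.05, limma adjusted p = 0.0104), 1 of 4 probes tested, where 31% of all detected mPFC probes passed. OVX+stress mice were 1.29-fold above control mice (log2 0.37, SE 0.08, limma adjusted p = 0.000946), where 33.5% of probes passed. Stress gave 0.18 (SE 0.05, limma adjusted p = 0.0625), which did not pass. None of the 4 probes passed for stress in limma (4.21% of all probes did), with 1 under 0.05 before adjustment. The interaction was -0.31 (SE 0.11, limma adjusted p = 0.0933). None of the 4 probes passed for it in limma (4.53% of all probes did), and Tgfb1 was the 1 under 0.05 before adjustment. Without mouse OVX+stress 5 the OVX effect was 0.19 (SE 0.06, limma adjusted p = 0.0175) and the contrast of OVX+stress with control mice 0.36 (SE 0.08, limma adjusted p = 0.00253), where 28.9% and 30.5% of probes passed. In that fit none of the 4 passed for stress or the interaction (3.12% and 3.26% of all probes did), with 1 and 2 under 0.05 before adjustment.

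Slide moved with this result. The 2 stress mice on slide 1, beside the control mice, had Tgfb1 at -3.10 and -3.04, while the 4 on slide 2 lay between -2.86 and -2.71. Within slide 1 stress mice differed from control mice by 0.13 (SE 0.06, limma adjusted p = 0.956). With slide as a block the OVX effect was 0.06 (SE 0.10, limma adjusted p = 0.949) and the contrast of OVX+stress with control mice 0.17 (SE 0.15, limma adjusted p = 0.965). Under spike-in scaling they were 0.06 (limma adjusted p = 1.0) and 0.12 (limma adjusted p = 0.835), while the median of all mPFC probes was -0.09 and -0.19. The mean of 10 microglial genes, a brain cell type that expresses Tgfb1, ran from 2.02 to 2.16 in control mice, 2.00 to 2.29 under stress, 2.18 to 2.35 with OVX and 2.13 to 2.46 with both, and its part in the Tgfb1 values was not tested.

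Il18, Casp1 and Ptgs2 overlapped between all groups in mPFC and passed no test there. Il18 ran from 1.43 to 1.76 in control mice, 1.56 to 1.85 under stress, 1.48 to 1.96 with OVX, 1.47 to 1.91 with both, and its SD over all 24 mice, 0.14, was the smallest of the 4 detected probes. Casp1 had medians of -0.75, -0.80, -0.90 and -0.62 in control, stress, OVX and OVX+stress mice. Ptgs2 had medians of -0.39, -0.11, -0.30 and -0.28 in the same order, and its OVX effect was -0.14 (SE 0.14, limma adjusted p = 0.477). The probes most like Ptgs2 over 23 mice were Lratd1 (0.83), the activity-induced gene Fosb (0.83) and the stress hormone gene Crh (0.82).

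Nlrp3 was not tested in mPFC, since 1 of its 24 arrays was not above background. Its levels fell together on slide 2. For A_52_P650540 the 4 stress and 4 OVX mice of slide 2 averaged -4.56 and -4.29, while stress mice on slide 1 averaged -3.82, OVX mice on slide 3 averaged -3.78, and control and OVX+stress mice -3.86 and -3.57. The other Nlrp3 probe, above background on 6 mPFC arrays, was also low on slide 2, at -6.62 and -6.26 against -4.97 and -5.23 for the stress and OVX mice of the other slides. Its control and OVX+stress mice, at -4.75 and -5.32, stood in the opposite order to the first probe. Without mouse OVX 3, the array below background, the interaction was 0.85 (SE 0.25, limma adjusted p = 0.0688).

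**Figure D4:**
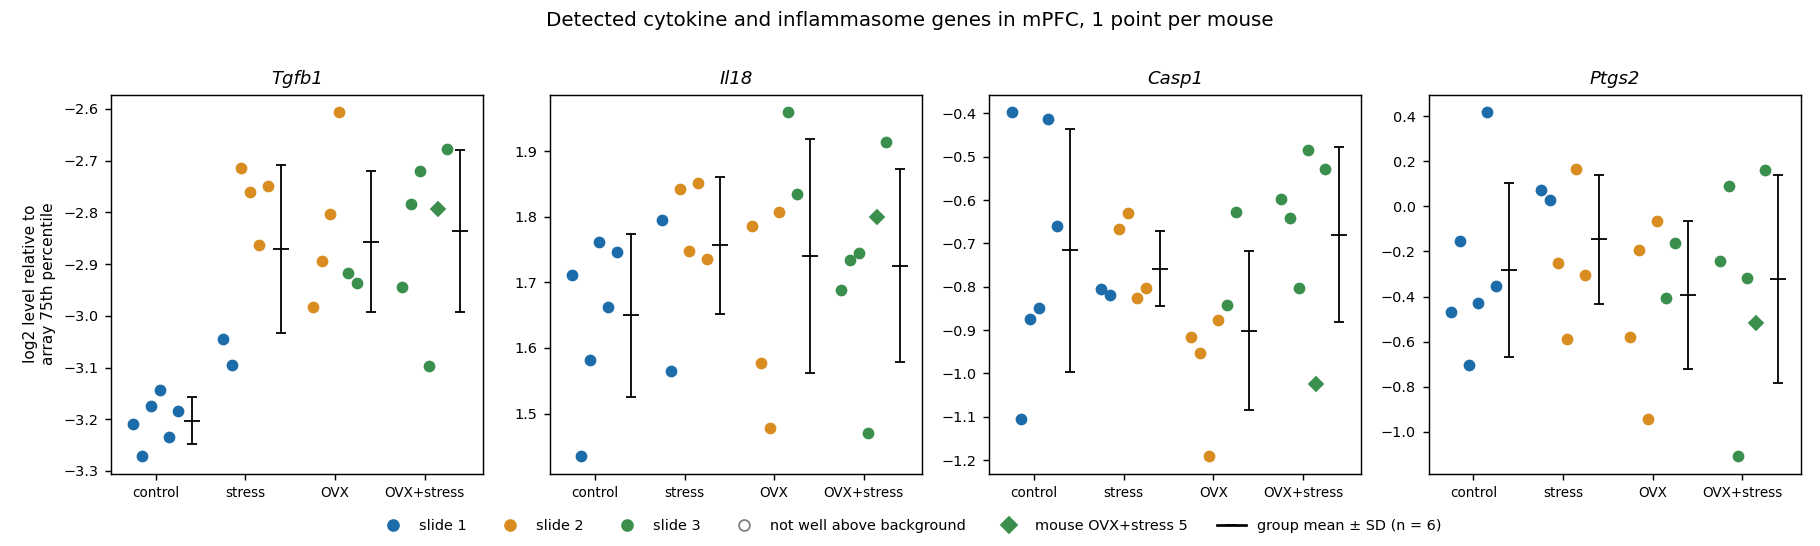
Log2 level relative to the array's 75th percentile of the 4 probes detected in mPFC, 1 point per mouse in 4 groups, coloured by slide, with the group mean ± SD (n = 6) beside each group. Tgfb1 in control mice (-3.27 to -3.14) lies below all other mice, and the 2 stress mice on slide 1 (-3.10 and -3.04) lie below the 4 on slide 2.

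Casp1 responded differently in the 2 tissues. The stress effect was 0.51 lower in blood than in mPFC (log2 -0.51, SE 0.15, limma adjusted p = 0.00543), and 48.9% of probes detected in both tissues passed this test. The OVX effect was 0.38 higher in blood (SE 0.15, limma adjusted p = 0.04), where 36.9% passed. Without mouse OVX+stress 5 the difference for stress was -0.63 (SE 0.13, limma adjusted p = 0.0004) and that for OVX 0.26 (SE 0.13, limma adjusted p = 0.096), which did not pass, while 51% and 36.8% of all probes did. With slide as a block they were -0.47 (limma adjusted p = 0.0707) and 0.46 (limma adjusted p = 0.966). For Tgfb1 neither difference passed, at -0.22 for stress (SE 0.11, limma adjusted p = 0.0984) and -0.14 for OVX (limma adjusted p = 0.309).

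**Figure D5:**
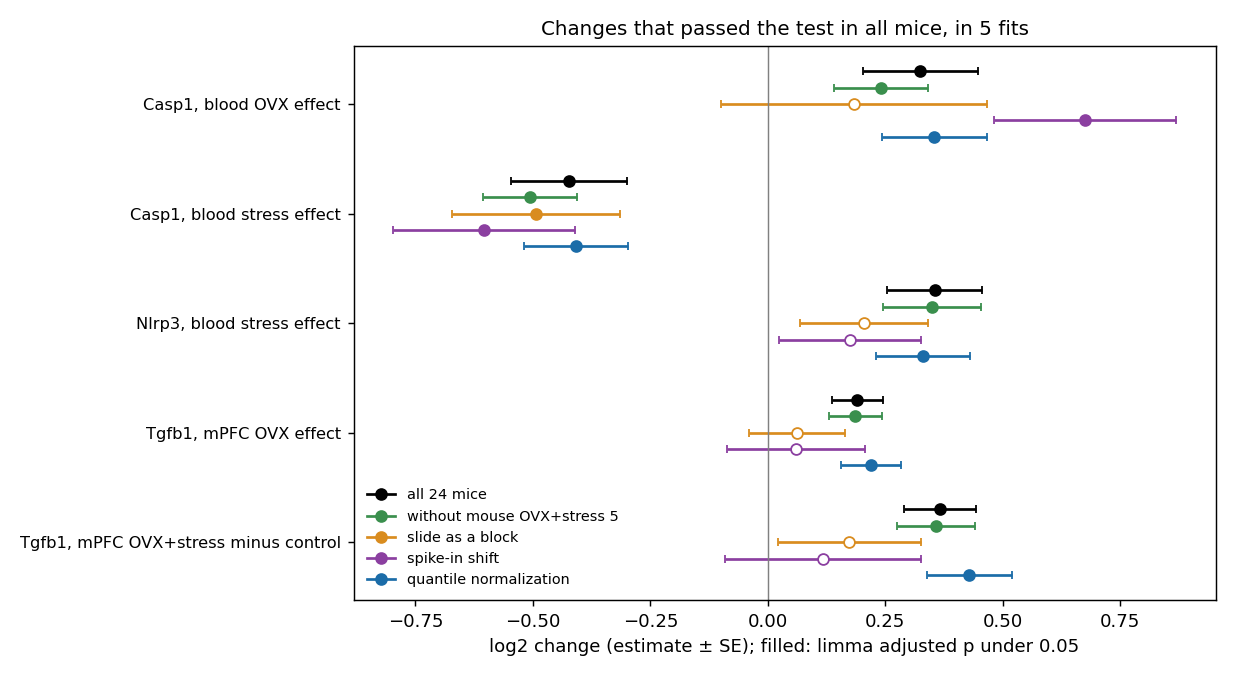
Log2 change (horizontal axis, estimate ± SE) of each change that passed the test in all 24 mice, in 5 fits shown by colour, with filled points where the limma adjusted p was under 0.05. The stress effect on Casp1 in blood passed in all 5 fits, and the other 4 changes lost the call with slide as a block.

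The wider pathway was read through 100 further genes of interleukin-1, inflammasome, NF-kB, TNF, interleukin-6, TGF-β and prostaglandin signalling, of which 67 had a detected probe in blood and 72 in mPFC. In blood, 21 of 67 genes only rose with OVX, 5 only fell, and 2, Ptges and Traf2, had probes that passed in both directions. This was 37.9% of the probes tested, against 55.1% of all detected probes. The largest rises were in Txnip, which binds NLRP3 (0.55, SE 0.10), Il10ra (0.53, SE 0.10) and Il1rl1, the interleukin-33 receptor (0.52, SE 0.16). The largest falls were in the inflammasome sensor Nlrp1b (-0.66, SE 0.26), the growth factor Csf1 (-0.62, SE 0.12) and the interleukin-1 co-receptor Il1rap (-0.41, SE 0.15). Leaving out mouse OVX+stress 5, 22 only rose and 3 only fell (34.5% of probes against 55.6%), and Nlrp1b was no longer among the 3 largest falls. With slide as a block no probe of any gene passed for OVX in blood, so all these calls were lost. The other effects on this list were not examined with slide as a block.

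Under stress in blood more of these genes fell than rose. There were 23 that only fell, 3 that only rose, and 3 (Relb, Nlrp1a and Map3k7) with probes that passed in both directions. This was 42.5% of probes against 48.5% of all, with a median change of -0.16 against -0.03 over all probes. All detected blood probes leaned the same way, with 29.4% lower and 19.1% higher under stress. The lymphotoxin gene Ltb (-0.62, SE 0.21), Nfkb1 (-0.50, SE 0.14) and Sigirr, an inhibitor of interleukin-1 receptors (-0.50, SE 0.09), fell most. Without mouse OVX+stress 5, Casp4 took the place of Sigirr among the 3 largest falls. The probes that rose most were of Relb (0.59, SE 0.19), Nlrp1a (0.58, SE 0.17) and the cytokine Osm (0.55, SE 0.18). The probes of the first 2 genes disagreed, since Relb also had 2 probes that fell (both -0.35, SE 0.09) and the brighter Nlrp1a probe fell (-0.43, SE 0.09). When mouse OVX+stress 5 was left out, 30 only fell, 4 only rose and 3 did both, which was 52.9% of probes against 50.8% of all, so the list's share lay above that of all probes rather than below it. Between OVX+stress and control mice 1 gene passed, Ptges3 (0.42, SE 0.11), which was 1.15% of probes against 6.26% of all.

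In mPFC, 18 of 72 genes rose with OVX and 5 fell (26.7% of probes, against 31% of all). Casp8 (0.31, SE 0.10), Stat3 (0.26, SE 0.05) and Nfkb2 (0.25, SE 0.08) rose most. Smad7, the inhibitor of TGF-β signalling (-0.26, SE 0.05), Lrrc32, which holds latent TGF-β at the cell surface (-0.24, SE 0.08), and Naip5 (-0.22, SE 0.07) fell most. Between OVX+stress and control mice, 23 only rose, 4 only fell and Relb had probes in both directions (31.7% of probes against 33.5%), with Stat3 at 0.46 (SE 0.08), Tradd at 0.39 (SE 0.07) and Nfkbia at 0.38 (SE 0.10). For stress 6 rose and none fell (5.94% of probes against 4.21%), Tgfb3 (0.21, SE 0.05) and Stat3 (0.20, SE 0.05) among them. The probes of Relb disagreed, with A_51_P389751 at 0.29 (SE 0.08) and A_55_P2168741 at -0.52 (SE 0.17) between OVX+stress and control mice. In the interaction A_55_P2168741 was at 0.98 (SE 0.24), the kinase Irak2 at 0.28 (SE 0.08) and Il6st, the shared receptor of the interleukin-6 family, at -0.28 (SE 0.08), which was 2.97% of probes against 4.53% of all. Leaving out mouse OVX+stress 5, only that Relb probe passed for the interaction (0.99% of probes against 3.26% of all). With OVX 17 genes then rose and 4 fell (25.7% of probes against 28.9%), and with stress 4 rose (3.96% against 3.12%). Between OVX+stress and control mice 22 only rose, 4 only fell and 1 did both (31.7% against 30.5%). Lrrc32 was then no longer among the 3 largest falls with OVX, nor Nfkb2 among the 3 largest rises.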

How the data were processed

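Blood and mPFC RNA of 24 mice was measured on 48 one-colour Agilent arrays. The intensity of each spot was deposited by the authors from Feature Extraction 10.7.3.1 with background subtracted but arrays left unscaled. The authors' series table gives log2 values after a shift of each array to its 75th percentile. They were within 0.001 log2, up to a constant per array, of those computed here for 100% of 55249 single-spot probes. Here, outlier spots (98 to 206 per array) were dropped, replicate spots were combined as log2 means, and the 75th percentile over non-control probes was subtracted. No spot was saturated. The rule of detection left 20768 probes in blood and 28361 in mPFC, taking the methods' raw intensity to mean the processed signal. The number of arrays limits the precision, and no read depth applies. RefSeq matched 26762 of 28390 transcript accessions.

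A two-factor model of surgery, stress and their interaction was fitted per tissue by limma (version 3.58.1, R 4.3.3, with the package data.table at version 1.17.8 and Python 3.11.15 for figures), two-sided, with Benjamini-Hochberg adjustment over all detected probes at 0.05. Differences between tissues were tested over 17546 probes without a block for the mouse, so the blood and mPFC arrays of a mouse counted as independent. A random block for the mouse, at a correlation of 0.0588, was an alternative for the OVX and stress differences. In simulated blood data, 52 of 100 probes changed by 0.5 log2 and 91 of 100 changed by 1 were recovered for OVX. In simulated mPFC data these were 84 and 97. No other probes were changed, noise was drawn independently and no slide effect was put in. In the data 55.1% of blood probes and 31% of mPFC probes passed for OVX, so these rates describe the simulated setting alone. The probes named are those of the 10 symbols, the 3 genes of the pathway list that rose and fell most per effect, and the 3 genes most like each detected probe. The genes, lists and alternatives were chosen with earlier results of these data known. Alternatives were normexp background (offset 50), quantile normalization, the percentile over detected probes, spike-in scaling, no filter, a looser filter, the authors' values, no moderation, slide or replicate number as a block, and leaving out each mouse. Labels tell the mice of a group apart only by number. P-values set the group differences against the spread between mice, and the main fit does not separate group from slide.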

Additional observations from a re-analysis of the deposited data

Results flagged for a closer look

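In blood, 3 genes had a mouse far from the other 5 of its group in OVX+stress mouse 5, with Il1b at 5.23, Il1r2 at 2.61 and Il1rn at -1.55. Its neutrophil genes were also highest, at 4.98, and their part in these values was not tested. In 3 other groups 1 mouse lay far from the rest. Tgfb1 was at 1.15 in control mouse 2, Il18 at -0.96 in control mouse 1, and Casp1 at 2.39 in OVX mouse 1. Over both tissues 50 groups were examined and 6 were picked out (12%), where chance picks about 1 group in 20.

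The effects on Casp1 differed between tissues, by 0.38 for OVX and -0.51 for stress (blood less mPFC, log2 scale). The OVX difference did not pass without mouse OVX+stress 5, and neither passed with slide as a block.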

How the results depend on the processing

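Each count of the 10 genes' probes that passed was recomputed under each alternative, and no estimate of a probe that passed changed direction. The share of all probes is given above for the main fits and mostly not for the alternatives. The counts below therefore show dependence on processing and are not read as results about these genes. For the tissue difference, 96.3% of all probes passed in the main fit. With slide as a block, the count for OVX was 0 in blood and 0 in mPFC, for stress in blood 1, for OVX+stress against control mice in mPFC 0, and for the OVX and stress differences between tissues 0 and 0. With spike-in scaling these were 2, 0, 1, 0, 1 and 0 in the same order. With no filter on dim probes, 3 probes passed for OVX in blood, 2 for OVX in mPFC, 11 for the tissue difference and 0 for the OVX difference, and with the looser filter 3 for OVX in blood, 5 for the tissue difference, 2 for the OVX difference and 1 for the interaction in mPFC. The percentile over detected probes gave 1 for OVX+stress against control mice in blood. The cause of these shifts was not tested. Leaving out 1 mouse gave 1 to 2 for OVX in blood, 2 to 2 for stress, 0 to 0 for the interaction and 0 to 1 for OVX+stress against control mice (1 without control mouse 2). In mPFC it gave 1 to 1 for OVX, 0 to 1 for stress, 0 to 1 for the interaction and 1 to 1 for OVX+stress against control mice. Both of these rose to 1 without stress mouse 1 or 2, and stress also without OVX mouse 4 or OVX+stress mouse 4. Between tissues it gave 2 to 3 for level, 0 to 1 for OVX (0 in 13 of 24) and 1 to 2 for stress (2 without control mouse 2). With the replicate number as a block, the counts for OVX and stress in blood were 1 and 2, and no call changed. The number pairs no mice across groups, with a median correlation of same-number mice of -0.09 in blood and 0.04 in mPFC over 36 pairs. For OVX in blood 11449 probes of all genes passed, against 18294 with no filter and 0 with slide as a block. The tissue level could not be fitted with slide as a block, since a slide holds 1 tissue. Dim probes, such as those of Il6, Il1rn and the second Nlrp3 probe, limit what can be read of small changes.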
